A study of Mus musculus with 4 samples.

Results

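Inhibitory receptors are surface proteins that dampen T cell activation, and TOX factors are nuclear proteins linked to their expression. Transcripts of 10 such genes were followed in activated mouse T cells: the receptor genes Pdcd1, Ctla4, Lag3, Havcr2, Tigit, Cd160, Btla and Vsir, and the factor genes Tox and Tox2. They were picked by gene symbol from a table of 22672 named genes. Of these, 9 were listed under that symbol. Vsir was listed under its older name, 4632428N05Rik, which RefSeq gives as a synonym, so that all 10 had a value.

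The cells were splenic T cells from Pmel mice, whose transgenic T cell receptor recognises gp100, a protein of pigment cells. They were stimulated with the cognate peptide at 1 µg/ml and IL-2 at 100 U/ml for 72 h before RNA was isolated. There were 2 libraries from wild-type cells (control 1 and 2) and 2 labelled SphK1 -/- (knockout 1 and 2), that is, lacking sphingosine kinase 1. This enzyme makes the lipid sphingosine-1-phosphate, and the comparison asked which transcripts differ when it is missing. The labels do not give the age of the mice, the structure of the SphK1 allele, or whether the libraries of a genotype came from separate animals. The p-values thus reflect the spread among these libraries alone, and that spread may be technical.

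Engaged inhibitory receptors recruit phosphatases, or take ligands away from stimulatory receptors, and so lower signalling from the T cell receptor and CD28. T cells switch several of them on within days of activation, as a brake on an ongoing response. Their lasting high expression together with TOX is known from exhausted T cells in chronic infection and tumours.

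Total counts of named genes lay between 43642723 and 53500852 per library. Reads of Sphk1 itself numbered 2 and 4 in controls 1 and 2, against 35 and 18 in knockouts 1 and 2 (log2 fold change 3.12, adjusted p = 0.0233 in edgeR). This runs against the labels, so each group is called here by its label. If the labels were exchanged, every fold change given here would change sign. Which exons the allele lacks is not given in the sources used here. Cd8a stood at 180.8 to 237.2 CPM (read counts scaled to a common library size) per kilobase of exon and Cd4 at 4.08 to 9.51. The sum of 9 cytotoxic T cell identity markers in knockout 1 and 2 was 0.950 and 0.997 times the control mean. None of the 9 passed, but Cd3d, Cd3e, Cd3g, Cd8b1, Lck and Cd247, 6 of the 9, had lower, separate values under the knockout label (such separation was found in 23.8% of all tested genes), and the median log2 fold change of the list was -0.17. In edgeR 6.75% of the 12758 genes tested had an adjusted p under 0.05: 6% of all tested genes stood higher under the knockout label and 0.752% of all stood lower.

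The control and knockout columns did not cover the same rows of the table. A further 720 rows without a gene name held counts in both control libraries (1.13% and 1.17% of their totals) and no value in either knockout library. Among named genes, 12 had at least 10 reads in both controls and 0 in both knockouts, and 35 had the reverse. Evi2b, chosen as an example after its values were seen, had 4259 and 4686 reads in the controls and 0 in both others. The sources used here do not say whether both genotypes were counted in the same way. A difference in counting and one between genotypes cannot be told apart. In a fit of the 9106 genes with little sequence or exon shared with other genes, 0.78% passed, and 0 of the 8 inhibitory receptor and Tox genes in that fit did.

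No inhibitory receptor or Tox gene passed the test between genotypes. Of 10 genes, 9 had enough counts to be tested, and 0 of the 9 passed in edgeR at an adjusted p of 0.05, against 6.75% of all genes. At an unadjusted p under 0.05 the number was also 0, against 14.9% of all genes. With DESeq2 and with limma-voom 0 passed, against 8.17% and 6.54% of all genes. An unadjusted p under 0.05 was reached by 1 gene (Lag3) with DESeq2 and 0 with limma-voom. In edgeR with all libraries it was reached by 1 with robust dispersion fitting and 1 without the filter on low counts. The number was 2 with the replicate number as a block and 5 with library totals alone. The share of all genes at this level was taken for the main edgeR fit only, so these counts are a description. The log2 fold change was negative for 8 of the 9 and positive for Vsir. Its median was -0.25 over the 9 genes and -0.021 over all genes tested. These 9 are the genes that passed the filter on low counts, and Tox2 is described on its counts alone.

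**Figure D1:**
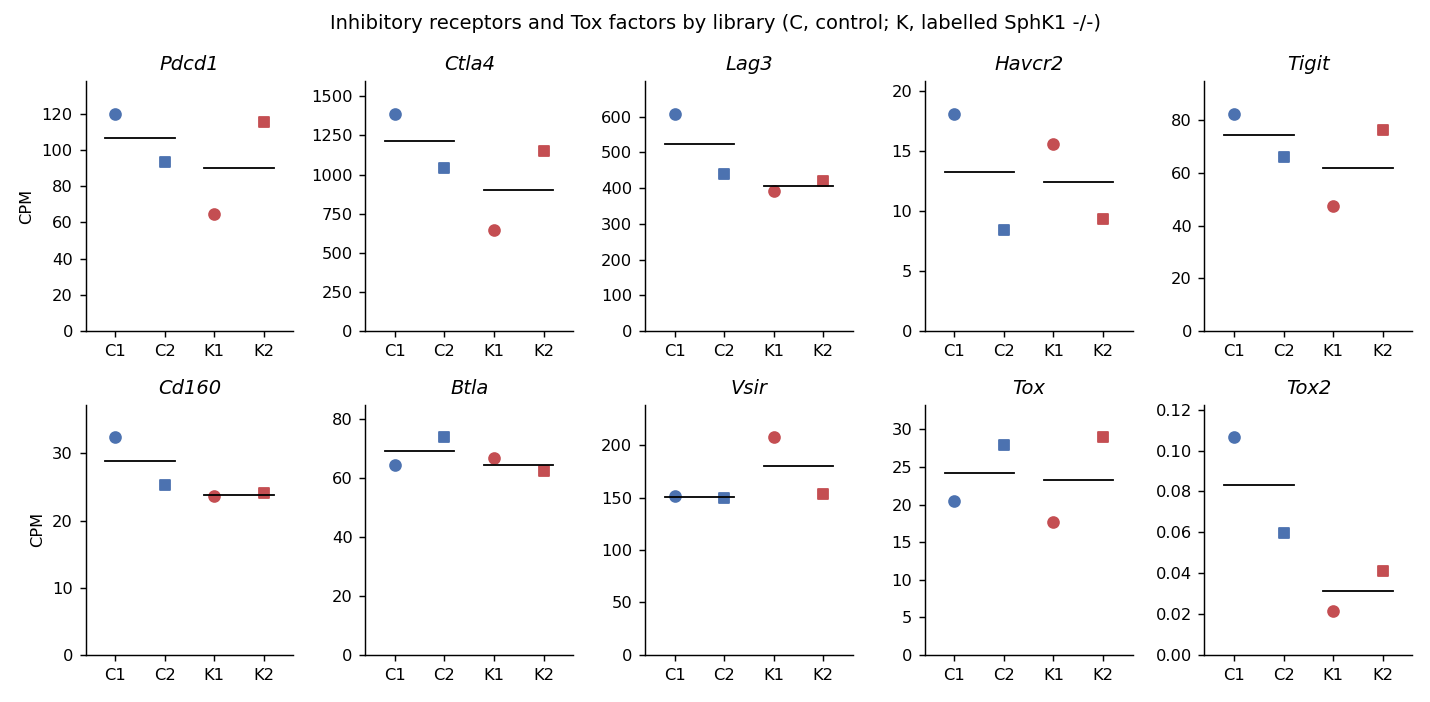
Level of each gene in CPM (vertical axis, starting at 0, with its own range per panel) in controls 1 and 2 (C1 and C2, blue) and in knockouts 1 and 2 (K1 and K2, red). Points are single libraries and lines are group means. Pdcd1, Ctla4 and Tigit were lowest in K1, while K2 lay between the 2 control libraries.

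The genes spanned a wide range of levels, compared per kilobase of exon over the 4 libraries. Ctla4 was the highest at 454.3 ± 132.8 CPM per kilobase (SD, n = 4), followed by Lag3 at 220.5 ± 46.2. Tigit stood at 74.1 ± 16.7 and Pdcd1 at 51.0 ± 13.04. Vsir (33.0 ± 5.59), Btla (19.7 ± 1.47) and Cd160 (9.97 ± 1.55) formed the middle of the order. Havcr2 (4.73 ± 1.73) and Tox (3.12 ± 0.733) were low, and Tox2 was near the detection limit at 0.0168 ± 0.0107. By its longest transcript alone the mean of Tox was 5.996, above that of Havcr2 at 4.73.

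The ranges over the 4 libraries overlapped between Ctla4 and Lag3, between Tigit and Pdcd1, between Pdcd1 and Vsir, and between Havcr2 and Tox, so the order within these pairs is not fixed by the pooled ranges. Within each library Ctla4 nevertheless exceeded Lag3: the level of Lag3 per kilobase was 0.484 and 0.465 times that of Ctla4 in controls 1 and 2, against 0.668 and 0.403 times in those labelled knockout. The other neighbours in the order had separate ranges. Together the 10 genes took 0.268% and 0.212% of the named-gene counts of controls 1 and 2, against 0.138% and 0.186% in knockouts 1 and 2. These shares use raw library totals. In the scaled CPM used for the other levels, the 10 genes summed to 2486 and 1930 in controls 1 and 2. The sums in knockouts 1 and 2 were 1482 and 2044, so the groups overlapped. Ctla4 alone held 55.9% and 54.1% of the reads of the 10 genes under the control label, and 43.7% and 56.4% under the other.

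**Figure D2:**
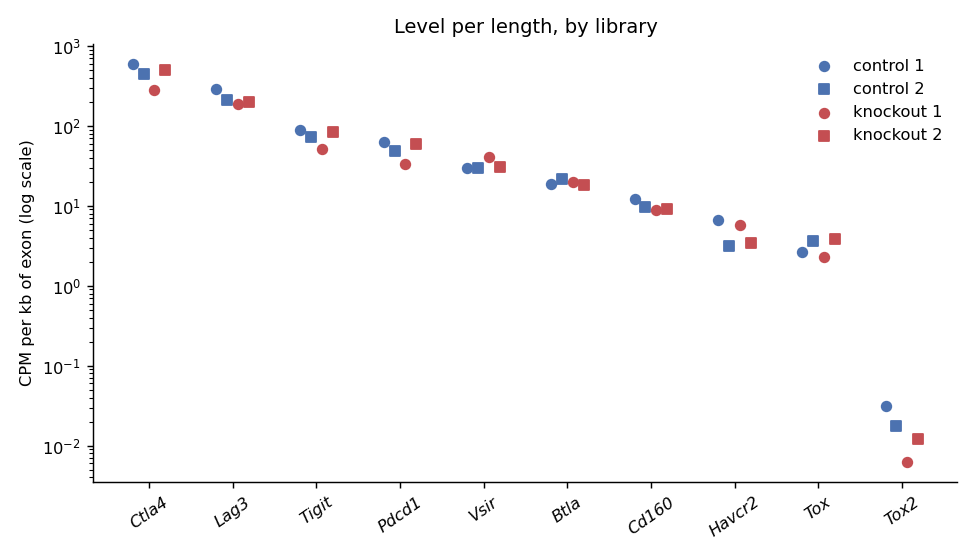
Level per kilobase of exon in CPM (vertical log axis), with genes ordered by their mean over 4 libraries and one point per library (blue, control; red, labelled knockout). Ctla4 and Lag3 stood at the top, with means of 454.3 and 220.5 CPM per kilobase, and Tox2 lay far under all others at 0.0168.

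Pdcd1, Ctla4 and Tigit had the same pattern over the libraries, so the 250 bases before their transcription start are shown. The sequences are from RefSeq (GRCm38.p6), written 5′ to 3′ on the strand of the gene. The windows are chr1:94052554-94052803 on the minus strand for Pdcd1, chr1:60908775-60909024 on the plus strand for Ctla4 and chr16:43664185-43664434 on the minus strand for Tigit. Capitals mark GGAAA or its reverse complement TTTCC, the core letters bound by NFAT factors, the calcium-driven regulators of activated T cells.
Pdcd1: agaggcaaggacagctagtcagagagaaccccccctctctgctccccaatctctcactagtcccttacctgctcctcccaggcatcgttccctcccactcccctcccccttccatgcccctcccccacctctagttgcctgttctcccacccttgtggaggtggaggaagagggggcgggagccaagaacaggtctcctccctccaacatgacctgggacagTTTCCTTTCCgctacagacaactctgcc
Ctla4: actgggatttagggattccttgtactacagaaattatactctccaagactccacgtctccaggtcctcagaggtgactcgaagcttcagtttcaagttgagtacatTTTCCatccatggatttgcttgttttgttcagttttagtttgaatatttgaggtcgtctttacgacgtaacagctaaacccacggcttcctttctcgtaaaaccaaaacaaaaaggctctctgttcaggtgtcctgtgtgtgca
Tigit: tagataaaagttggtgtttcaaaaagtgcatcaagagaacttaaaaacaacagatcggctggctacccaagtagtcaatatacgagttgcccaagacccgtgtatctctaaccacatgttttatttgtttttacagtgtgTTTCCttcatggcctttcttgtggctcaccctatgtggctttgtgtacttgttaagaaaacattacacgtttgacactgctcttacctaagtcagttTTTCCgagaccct
Pdcd1 and Tigit each held 2 matches and Ctla4 held 1. In Pdcd1 they begin 28 and 23 bases before the start, in Tigit 110 and 13, and in Ctla4 144. Searched on both strands, these letters occur in 55.6% of the 32851 windows of this length in the table, so a match here is only a description. An AP-1 site (TGANTCA), an NR4A site (AAAGGTCA) and a cAMP response element (TGACGTCA) were also searched. They had no match in the windows shown and occur in 6.75%, 1.34% and 1.55% of all windows. Of the 10 genes, 8 had an entry in the table, and Lag3 and Tox had none. The RefSeq start of Ctla4 used here lies inside the GENCODE span given next.

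Among the receptors with the best known roles, Ctla4 encodes the CTLA-4 protein, which binds CD80 and CD86 more tightly than CD28 does. It spans bases 60887000 to 60915832 of chromosome 1 (GRCm38). Ctla4 stood at 1389 and 1045 CPM in control 1 and 2, and at 647.6 and 1153 CPM in knockout 1 and 2. Knockout 1 was the lowest library and knockout 2 lay between the controls, so the groups overlapped. Group means were 1217 ± 243.3 and 900.4 ± 357.5 CPM (SD, n = 2 each). Between groups the log2 fold change was -0.43 ± 0.26 (SE; 95% interval -1.02 to 0.16), with an adjusted p of 0.519 in edgeR.

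Pdcd1 encodes PD-1, the receptor for PD-L1 and PD-L2, and lies on chromosome 1 from 94038305 to 94052553. Its levels were 120.0 and 93.6 CPM under the control label, against 64.8 and 115.2 CPM in knockouts 1 and 2. The order of the libraries was the same as for Ctla4, and the groups overlapped. The log2 fold change of Pdcd1 was -0.25 ± 0.24 (SE; 95% interval -0.80 to 0.31; adjusted p = 0.720 in edgeR). The ratio of Pdcd1 to Ctla4 per kilobase varied little, at 0.104 and 0.108 in the control libraries and 0.121 in both others, but the groups did not overlap. That of Tigit to Ctla4 was 0.151 and 0.160 in controls 1 and 2, against 0.186 and 0.168 in knockouts 1 and 2, also without overlap. No ratio was tested between groups.

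Tigit encodes a receptor that competes with the stimulatory receptor CD226 for the ligand CD155. It lies on chromosome 16 from 43648867 to 43664146, and 8.37% of its 30-base words occur in other annotated genes. Tigit stood at 82.5 and 66.1 CPM in controls 1 and 2, against 47.4 and 76.2 CPM in knockouts 1 and 2. Again knockout 1 was lowest, knockout 2 lay between the controls and the groups overlapped. In edgeR its log2 fold change was -0.26 ± 0.21 (SE; 95% interval -0.75 to 0.22; adjusted p = 0.644).

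For these 3 receptor genes a single library decided the size and, for 2 of them, the sign of the difference. Without knockout 1 the log2 fold change was 0.11 for Pdcd1, -0.077 for Ctla4 and 0.038 for Tigit. Without knockout 2, all 3 passed in edgeR: Ctla4 fell by 0.91 (adjusted p = 0.0248), Pdcd1 by 0.72 (0.0266) and Tigit by 0.65 (0.0498), in a fit where 0.725% of all genes were lower. In that fit the spread came from the controls alone, so its p-values do not measure the spread under the knockout label. Without control 1 the values were -0.028 for Pdcd1, -0.19 for Ctla4 and -0.068 for Tigit. Without control 2 they were -0.41 for Pdcd1, -0.62 for Ctla4 and -0.41 for Tigit.

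Knockout 1 and 2 differed on the log2 scale by 0.83 for Ctla4, 0.83 for Pdcd1 and 0.68 for Tigit. Of all tested genes 5.13%, 5.18% and 7.53%, in this order, differed at least as much between these 2 libraries, whose median absolute difference was 0.15. The 3 genes were grouped after these values were seen. Havcr2 (-0.73, knockout 2 against 1) and Tox (0.71) differed about as much, with 6.80% and 7.12% of all tested genes at least as far apart. Vsir (14.7%), Lag3 (64.0%), Btla (64.5%) and Cd160 (90.1%) differed less between knockout 1 and 2. Both libraries carry the same genotype label.

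Marker lists of other cells also differed between the libraries. The summed level of 8 B cell markers was 185.2 and 195.0 CPM in the control libraries, 394.6 CPM in knockout 1 and 186.4 CPM in knockout 2, and none of the 8 was at 0. Dendritic cell and MHC class II markers (11 genes) summed to 608.7, 521.7, 881.1 and 406.1 CPM in the same order. Natural killer cell markers (8 genes) summed to 21.4 and 20.2 CPM in the control libraries and to 62.0 and 39.7 CPM in the others, with Klra4 and Klra8 at 0 in all libraries. Macrophage and monocyte markers (10 genes) summed to 11.3, 14.6, 29.97 and 18.4 CPM, and Cd68 made up most of this sum (7.26, 9.47, 22.2 and 13.2 CPM; log2 fold change 1.08, adjusted p = 0.0478 in edgeR). The defining marker Csf1r was at 0.362, 0.339, 0.362 and 0.371 CPM, and Ms4a7 was at 0.0852, 0.120, 0.0425 and 0 CPM. C1qa was at 0 in both controls, C1qb in control 1, Mrc1 in control 2 and knockout 1, and Fcgr1 in all libraries but knockout 1. Relative to the control mean, helper T cell markers (3 genes) were at 1.02 and 0.725 times in knockouts 1 and 2. Gamma delta and innate-like T cell markers (5 genes) were at 1.68 and 0.979 times, and neutrophil and mast cell markers (6 genes) at 1.48 and 1.18 times. In edgeR 1 of 8 tested B cell, 1 of 9 dendritic cell and MHC class II and 2 of 6 natural killer cell markers rose. Cd68 was the 1 riser among 5 tested macrophage and monocyte markers, and 6% of all tested genes rose. No helper, gamma delta and innate-like or neutrophil and mast cell marker passed. The part of these markers in the lower Ctla4, Pdcd1 and Tigit of knockout 1 was not tested. In a bulk culture, fewer cells of a type and less RNA per cell cannot be told apart.

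**Figure D3:**
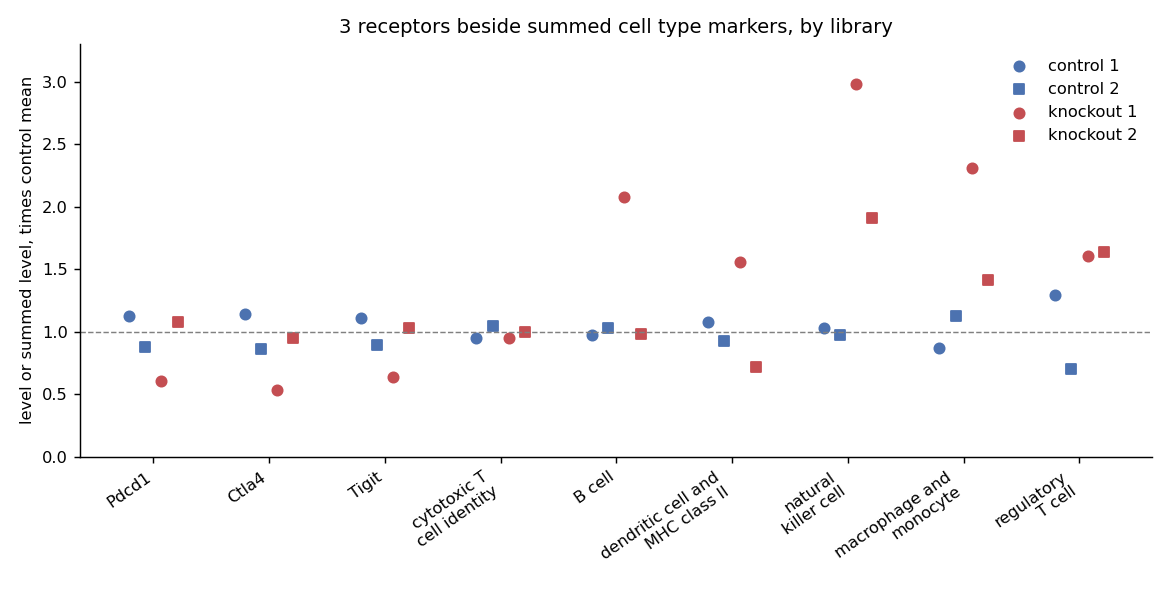
Level of Pdcd1, Ctla4 and Tigit, and summed level of cell type marker lists, as multiples of the control mean (vertical axis), with one point per library (blue, control; red, labelled knockout). In knockout 1 the 3 receptors stood at 0.532 to 0.638 times the control mean and B cell markers at 2.08 times, while knockout 2 was at 0.948 to 1.08 and 0.980 times.

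Ctla4 and Tigit are also hallmark genes of regulatory T cells. Foxp3, the factor that defines those cells, was at 0.362 and 0.518 CPM under the control label and at 0.489 and 0.659 CPM in knockouts 1 and 2. The whole regulatory list (6 genes) summed to 164.4 and 89.1 CPM, and to 203.8 and 207.6 CPM. Lrrc32 made up much of this sum and was at 5.84 CPM in control 2 against 78.3 to 103.9 CPM in the other libraries. Nrp1 of the same list was highest in control 1 and lowest in knockout 1 (16.2, 11.4, 4.85 and 9.29 CPM). The part of regulatory T cells in the levels of Ctla4 and Tigit was not tested.

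Lag3 encodes a receptor related to CD4 that binds MHC class II, and it came nearest to the threshold. It spans bases 124904361 to 124911705 of chromosome 6. Lag3 stood at 608.3 and 439.8 CPM in controls 1 and 2, against 391.5 and 420.8 CPM in knockouts 1 and 2. The groups did not overlap, although control 2 and knockout 2 were close together. The log2 fold change was -0.37 ± 0.16 (SE; 95% interval -0.74 to 0.0063), with an unadjusted p of 0.0532 and an adjusted p of 0.348 in edgeR. Without control 1 it shrank to -0.085, and without control 2 it was -0.58 (adjusted p = 0.0370), where 1.75% of all genes were lower. The fit without control 2 took its spread from the knockouts alone. With library totals alone as the scaling the log2 fold change of Lag3 was -0.61 (adjusted p = 0.0437 in edgeR). There the median of all genes also moved to -0.26 and 11.2% of all genes were lower.

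The genes with the library pattern most like that of Lag3 were Mpdu1, Rgs10 and Pla2g12a, by Euclidean distance between centred log2 CPM values over 4 libraries among 11096 genes. Their distances were 0.0273, 0.0300 and 0.0326. Mpdu1, for example, was at 96.7, 70.5, 61.2 and 66.2 CPM in control 1, control 2, knockout 1 and knockout 2. With 4 libraries this is a description only.

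Cd160 encodes a receptor for the TNF receptor family member HVEM, anchored to the membrane by a lipid in its best known form. It spans bases 96798763 to 96829351 of chromosome 3. Cd160 stood at 32.4 and 25.3 CPM under the control label and at 23.6 and 24.1 CPM in knockouts 1 and 2. Control 1 was high and the other 3 libraries lay close together, with no overlap between groups. Between groups the log2 fold change was -0.28 ± 0.16 (SE; 95% interval -0.63 to 0.081; adjusted p = 0.497 in edgeR), -0.058 without control 1 and -0.44 without control 2. Lag3 and Cd160 were thus 2 of the 9 tested genes with lower, separate values under the knockout label. Such separation in this direction was found in 23.8% of all tested genes.

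Btla encodes the other HVEM receptor of the set, which carries tyrosine motifs for phosphatase binding and is also expressed by B cells. It spans bases 45224315 to 45257670 of chromosome 16 and had the smallest SE of the 9 tested genes. Btla stood at 64.5 and 73.8 CPM in controls 1 and 2, against 66.9 and 62.3 CPM in knockouts 1 and 2, and the groups overlapped. In edgeR its log2 fold change was -0.099 ± 0.12 (SE; 95% interval -0.37 to 0.17; adjusted p = 0.773), and without control 2 it was 0.0085. B cell markers were at 2.08 times the control mean in knockout 1, where Btla was at 0.967 times, and their part in the level of Btla was not tested.

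Vsir encodes VISTA, an inhibitory protein of T cells and myeloid cells that acts as a receptor and as a ligand. It spans bases 60346851 to 60372684 of chromosome 10 and was the one tested gene with a positive log2 fold change. Vsir stood at 151.1 and 150.1 CPM under the control label and at 207.5 and 153.4 CPM in knockouts 1 and 2. The groups did not overlap, but knockout 2 exceeded control 1 by little and knockout 1 carried the difference. The log2 fold change was 0.26 ± 0.15 (SE; 95% interval -0.081 to 0.60; adjusted p = 0.502 in edgeR), 0.028 without knockout 1 and 0.46 without knockout 2. Separation in this direction was found in 21% of all tested genes. Macrophage and monocyte markers were at 2.31 times the control mean in knockout 1 and at 1.41 times in knockout 2, mostly through Cd68 and with Csf1r near its control level, and their part in the level of Vsir was not tested.

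Havcr2 encodes TIM-3, a receptor of effector and exhausted T cells and of myeloid cells, on chromosome 11 from 46454935 to 46481255. Havcr2 stood at 18.1 and 8.45 CPM in controls 1 and 2, against 15.6 and 9.37 CPM in knockouts 1 and 2. Libraries of 1 genotype were farther apart than the group means, with a control difference of -1.10 on the log2 scale (control 2 against 1) and a knockout difference of -0.73 (knockout 2 against 1). Between groups the log2 fold change was -0.092 ± 0.36 (SE; 95% interval -0.91 to 0.73; adjusted p = 0.937 in edgeR). Without control 1 the value was 0.59, without control 2 it was -0.53, without knockout 1 it was -0.50 and without knockout 2 it was 0.23.

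**Figure D4:**
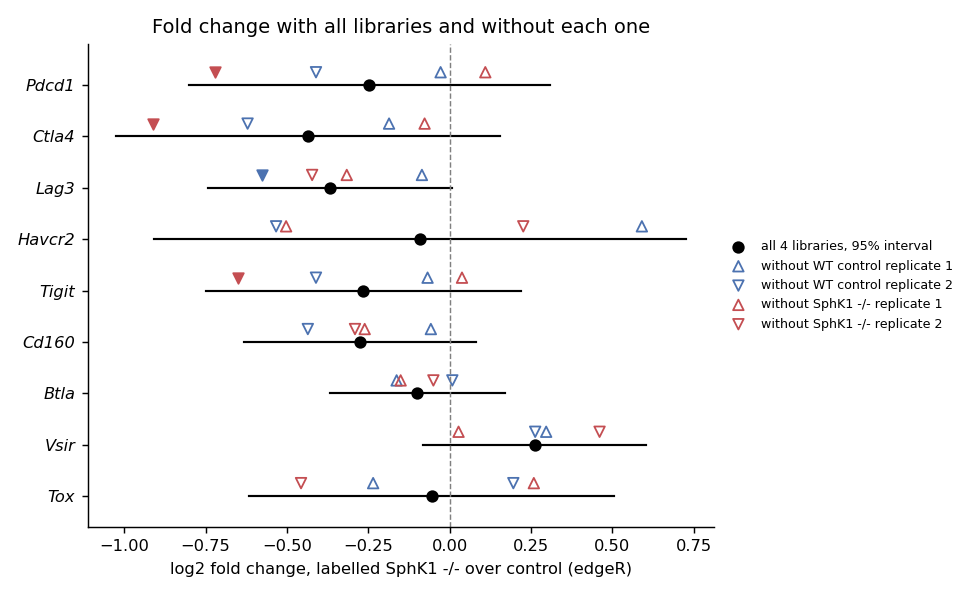
Log2 fold change (horizontal axis, libraries labelled knockout over control, edgeR) of the 9 tested genes. Black points and lines are the estimates from 4 libraries with 95% intervals, and triangles leave out 1 library each, filled where the adjusted p was under 0.05. All 9 intervals include 0, and the filled triangles are those of Pdcd1, Ctla4 and Tigit without knockout 2 and of Lag3 without control 2.

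Of the factors, Tox encodes a DNA-bending HMG-box protein needed for the exhausted T cell state, and lies on chromosome 4 from 6686353 to 6991557. Tox stood at 20.4 and 27.98 CPM under the control label and at 17.7 and 28.9 CPM in knockouts 1 and 2. The groups overlapped, since each held a lower and a higher library. In edgeR its log2 fold change was -0.055 ± 0.25 (SE; 95% interval -0.62 to 0.51; adjusted p = 0.946). Without knockout 1 it was 0.26, without knockout 2 -0.46, without control 1 -0.23 and without control 2 0.20. Tox was not ordered over the libraries like Pdcd1 or Ctla4, since control 1 was the highest library for both of those and the second lowest for Tox.

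Tox2, a close relative of Tox expressed in follicular helper and exhausted T cells, was barely detected. It spans bases 163203125 to 163324170 of chromosome 2. Controls 1 and 2 held 5 and 3 reads of it, knockouts 1 and 2 held 1 and 2. The totals of 8 and 3 reads gave a ratio of 0.381 (knockout over control, scaled to depth) with an exact 95% counting interval of 0.0651 to 1.59, which covers counting error only. A difference was not detectable at this depth. Of the remaining family members, Tox4 was at 105.9, 103.8, 119.1 and 120.9 CPM (log2 fold change 0.20, adjusted p = 0.460 in edgeR). Tox4 shares 13.4% of its words with other genes and 16.2% of its exonic bases overlap theirs, so its value is uncertain. Tox3 was at 0.0618 to 0.128 CPM. The level of Tox per kilobase was 0.176 and 0.246 times that of Tox4 in controls 1 and 2, against 0.135 and 0.219 times in the others.

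Ligands of these receptors were described next, from a list of 15 genes of which 13 were tested. In edgeR 1 of the 13 rose and 0 fell, against 6% and 0.752% of all genes, and the median log2 fold change was 0.17 against -0.021 over all genes. The riser was Hmgb1, a nuclear protein that binds TIM-3 when released, which went from 38.6 and 31.9 CPM to 676.9 and 781.0 CPM (log2 fold change 4.37, adjusted p = 2.95e-07). Its words are shared with other annotated genes to 24.4%, so its value is uncertain. By level per kilobase the leading others were Selplg, a ligand of VISTA at acidic pH, Lgals9, the galectin bound by TIM-3, Lgals3, a galectin bound by LAG-3, and Cd80. None of them passed: the log2 fold change was -0.059 for Selplg (adjusted p = 0.885), 0.32 for Lgals9 (0.342), 0.13 for Lgals3 (0.898) and 0.39 for Cd80 (0.209).

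Both PD-1 ligand genes, named after their values were seen, were also expressed in the culture. Cd274, which encodes PD-L1, was at 41.5, 39.0, 61.9 and 40.9 CPM in control 1, control 2, knockout 1 and knockout 2 (log2 fold change 0.35, adjusted p = 0.454 in edgeR). Of the exonic bases of Cd274, 14.1% overlap those of other genes, so its value is uncertain. Pdcd1lg2, which encodes PD-L2, was at 16.2, 16.6, 19.7 and 19.6 CPM (0.26, adjusted p = 0.493). For Cd274 knockout 1 was again the library apart, on the high side.

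Other inhibitory receptors formed a list of 17 genes, of which 15 were in the table and 14 were tested. In edgeR 2 of the 14 rose and 0 fell, against 6% and 0.752% of all genes, with a median log2 fold change of 0.15. The risers were Klrc1, the NKG2A receptor gene (from 2.24 and 2.07 CPM to 52.5 and 36.2 CPM; log2 fold change 4.36, adjusted p = 2.40e-06), and Klra7, a Ly49 receptor gene (from 3.45 and 4.23 CPM to 15.0 and 11.7 CPM; 1.80, adjusted p = 0.00094). Both belong to families of near-identical copies, with 53.9% and 25.6% shared words, and are uncertain. Summed natural killer cell markers, a list that also holds Klra7, were at 2.98 and 1.91 times the control mean in knockouts 1 and 2, and their part in these rises was not tested. Il10ra, Cd96, Cd5 and Adora2a, the highest of the rest per kilobase, did not pass, with log2 fold changes of 0.19, -0.076, -0.33 and -0.20 and adjusted p from 0.158 to 0.828 in edgeR. With library totals alone Cd5 (-0.57, adjusted p = 0.0126 in edgeR) and Adora2a (-0.43, 0.0490) passed. In that fit the median of all genes was also at -0.26 and 11.2% of all genes were lower.

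Signalling partners of the receptors formed a list of 21 genes, all tested, with 1 riser and 0 fallers (6% and 0.752% of all genes) and a median log2 fold change of -0.025. The riser was Ap2m1, the adaptor subunit that takes CTLA-4 from the cell surface (from 34.04 and 37.6 CPM to 287.0 and 313.6 CPM; log2 fold change 3.07, adjusted p = 5.51e-07 in edgeR). It shares 32.8% of its words with other genes and is uncertain. The log2 fold change of Ptpn6, the phosphatase SHP-1, was -0.36 (adjusted p = 0.254 in edgeR). That of Csk was -0.034 (0.925), of Icos 0.063 (0.881) and of Sh2d2a 0.12 (0.759). With library totals alone Ptpn6 was at -0.60 (adjusted p = 0.0289 in edgeR), where the median of all genes was -0.26 and 11.2% of all genes were lower.

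Cd28, the stimulatory counterpart of Ctla4 and named after its values were seen, was at 342.1 and 350.8 CPM under the control label and at 175.7 and 262.2 CPM in knockouts 1 and 2. Its log2 fold change of -0.66 ± 0.18 (SE) did not pass (adjusted p = 0.0737 in edgeR), and the groups did not overlap. Cd28 passed with DESeq2 (-0.65, adjusted p = 0.00605) and in edgeR with the replicate number as a block (-0.69, adjusted p = 0.00113). It also passed in edgeR with library totals alone (-0.91, adjusted p = 0.0195), where the median of all genes was -0.26 and 11.2% of all genes were lower. The ratio of Ctla4 to Cd28 per kilobase was 10.7 and 7.82 in controls 1 and 2, against 9.68 and 11.6 in the others, so the ratio overlapped between the groups. For the pair Tigit and Cd226 the ratio was 13.01 and 7.23, and 6.24 and 10.004, which also overlapped. For Ctla4 and Icos it was 8.17 and 6.77 in controls 1 and 2, against 4.23 and 6.21 in the others, which did not overlap.

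Transcription factors tied to inhibitory receptor expression formed a list of 20 genes, all tested, with 1 riser and 0 fallers (6% and 0.752% of all genes) and a median log2 fold change of -0.016. Nr4a3, an activation-induced nuclear receptor, went from 37.1 and 20.2 CPM to 101.3 and 125.8 CPM (log2 fold change 1.99 ± 0.25 SE, adjusted p = 0.00118 in edgeR; 0.0519 with robust dispersion fitting), and 0.519% of its words are shared. Nr4a2 (log2 fold change -0.96, adjusted p = 0.237 in edgeR) and Nr4a1 (-0.15, 0.656), named after their values were seen, were lower and did not pass. The other highly expressed members did not pass in edgeR: Irf4 (log2 fold change -0.038, adjusted p = 0.934), Id2 (0.70, 0.135), Tcf7 (-0.018, 0.976) and Nfatc1 (-0.061, 0.852). Id2 passed with DESeq2 (0.71, adjusted p = 0.0220). Tcf7, the factor of naive and memory-like T cells, was at 93.5, 139.1, 109.4 and 120.3 CPM, with overlapping groups.

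Single libraries also moved the calls on these 5 lists, where 5 genes passed with all libraries. Each fit without 1 library takes the spread of the reduced group from the other group. Of the genes named below, Cd274, Cd72 and Inppl1 have 14.1%, 41.6% and 20.3% of their exonic bases overlapping other genes and are uncertain. Without knockout 2 the number was 14, in a fit where 6.86% of all genes passed. Among the 9 added, Cd274 (log2 fold change 0.62, adjusted p = 0.0378 in edgeR), Cd86, Cd244a, Entpd1, Cd72, Eomes and Id2 were higher, while Cd28 (-0.98, 0.00172) and Prdm1 were lower. Without control 1, Inppl1 (-1.21) and Id2 (1.02) were added, where 6.18% of all genes passed, and without control 2 Nr4a2 (-1.47), where 8.05% passed.

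**Figure D5:**
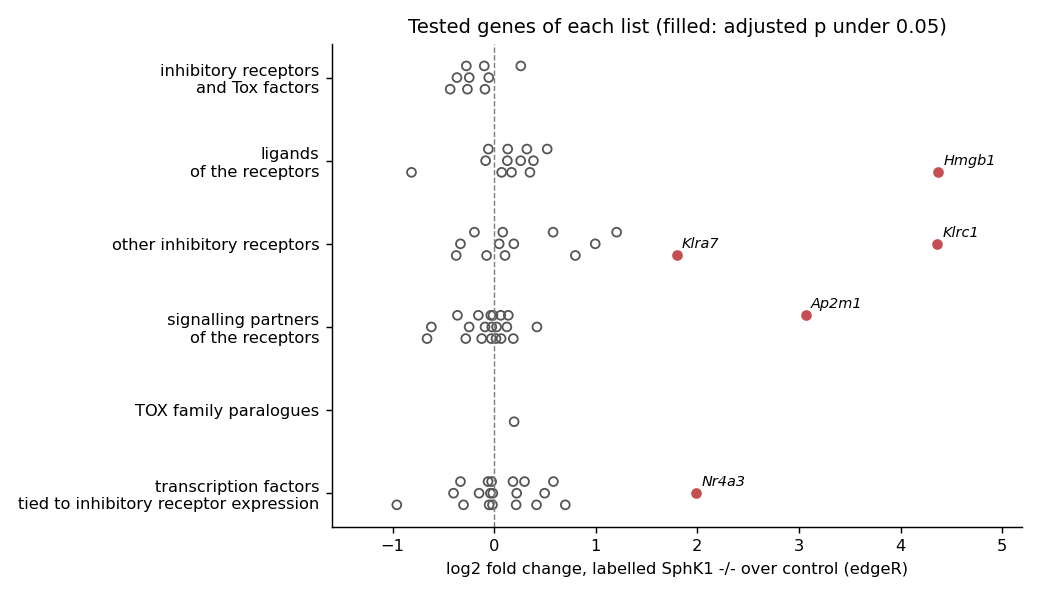
Log2 fold change (horizontal axis, libraries labelled knockout over control, edgeR) of every tested gene of 6 lists, with vertical position only separating points. Filled red points passed an adjusted p of 0.05: Hmgb1, Klrc1, Klra7, Ap2m1 and Nr4a3, all on the higher side and none among the inhibitory receptors and Tox factors.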

How the data were processed

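The authors deposited raw counts per gene, as whole numbers with 1 column per sample. Per the submitters' processing notes, the build was GRCm38 and the tools included HTSeq 0.6.1p1, TopHat2 2.0.13, DESeq2 1.14.1 and cutadapt 1.11. Their roles, the annotation and the handling of reads with several matches are not given in the sources used here. Of 23419 rows, 720 without a name (1.13% and 1.17% of the counts of controls 1 and 2; no value in either knockout library) and 27 with a date in place of one (0.26% to 0.312%) were left out.

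The whole table was tested with edgeR 4.0.16 in R 4.3.3 (quasi-likelihood F test after TMM scaling; genes kept by filterByExpr at a minimum count of 10; p adjusted after Benjamini and Hochberg over 12758 genes; threshold 0.05). Dividing the size of the log2 fold change by the root of F gave its SE, and 95% intervals use the moderated degrees of freedom. CPM use TMM-scaled library sizes. In CPM, 3 counts correspond to 0.0598 to 0.0639. Lengths, coordinates, exonic overlap and shared 30-base words come from GENCODE M21. Alternatives were DESeq2 1.42.0, limma 3.58.1 (voom) and other scalings, filters and sample sets. The fit was tested on simulated data. From the other lists, the text names the genes past the threshold and the 4 highest per kilobase. The members and lists were chosen with earlier results of these data known.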

Additional observations from a re-analysis of the deposited data

How the results depend on the processing

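The count of inhibitory receptor and Tox genes past the threshold was 0 with all libraries and ranged from 0 to 3 when 1 library was left out. It was 1 with library totals alone (Lag3) and 0 under the other alternatives that kept 4 libraries. With the replicate number as a block it was 0. The deviations of control 1 and knockout 1 from their group means had a correlation of -0.037 across genes. The labels do not say whether same-numbered libraries were paired. This correlation cannot decide it, since a shared effect may be small or touch few genes. Leaving out 1 library gave log2 fold changes from -0.72 to 0.11 for Pdcd1, -0.53 to 0.59 for Havcr2, -0.65 to 0.038 for Tigit, -0.16 to 0.0085 for Btla and -0.46 to 0.26 for Tox, so these 5 changed sign. A lone library was assumed to vary like the other group. Of the genes on the other lists 5 passed, and 5 to 14 without 1 library, 14 with library totals alone, 11 with DESeq2, 12 with the replicate block and 1 (Nr4a3) among single-copy genes (at most 5% shared words and 10% overlap), where fewer genes were fitted. Over all genes 765 were higher and 96 lower, against 652 and 1432 with library totals alone, and 62 and 9 of 9106 single-copy genes. With DESeq2 899 of all 12758 genes were higher and 143 lower (8.17% together), and with the replicate block 942 and 178. The level of Tox was 5.996 CPM per kilobase by its longest transcript. The 2 libraries per genotype limit every comparison.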
